A study of Microtus ochrogaster and Microtus pennsylvanicus and Peromyscus californicus with 10 samples.

Results

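The prairie vole, Microtus ochrogaster, and the meadow vole, Microtus pennsylvanicus, were compared through the RNA of their brains. They make up 2 of the 10 libraries of the series. Members were taken from their 2 tables of protein IDs by joining on the ID. Of 19200 IDs in either vole table, 13188 were in both and had at least 10 raw counts over the pair, 5359 were listed for M. ochrogaster only and 653 for M. pennsylvanicus only. The count limit removed no shared ID, because the lowest sum over the pair was 50. Over the whole series the tables hold 60949 IDs.

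Each library was made from fore- and midbrain RNA of 3 reproductive males that were pooled before sequencing. The labels give no age, strain, origin, housing or treatment for either vole, and do not say whether a given pool was frozen on dry ice or kept in RNAlater. With 1 pooled library per species there is no replicate and no test, and every ratio below is a difference between 2 libraries. Libraries of Peromyscus californicus (California mouse) and Peromyscus maniculatus (deer mouse), made in the same way from 3 reproductive males each, were used only as an outside level.

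Prairie voles are a standard model of pair bonding: partners share a nest and both parents tend the young. Meadow voles are their promiscuous relatives, and males give little care. Work on these animals has centred on the vasopressin and oxytocin receptors and on dopamine signalling in the ventral forebrain, where receptor distribution differs between the species. Such genes could not be picked out here, because the tables carry IDs without gene names, and 0 of the 19750 IDs of the 4 rodent tables matched the RefSeq gene table at hand. For the same reason the labelled tissue was not checked against marker genes. The IDs are therefore described by level, by direction and by the library that stands away from the others.

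The M. ochrogaster table was the deeper. Its RPM scale, on which a count is divided by the reads of its library, rested on 274693175 reads, against 75649532 in M. pennsylvanicus, 84958567 in P. californicus and 101971826 in P. maniculatus. Between 93.8% and 95.6% of those reads lay in listed IDs. No table lists an ID at 0. The lowest listed count was 36 in M. ochrogaster (0.131 RPM) and 7 in M. pennsylvanicus (0.0925 RPM). An ID that a table lacks was given no value.

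The 2 vole brains shared most of their abundant IDs but not their order. Of the 10 most abundant IDs of each vole 6 were in common, of the 100 most abundant 59, and of the 1000 most abundant 628. Most of the others were listed in both voles at a lower rank: of the 100 most abundant IDs of M. ochrogaster, 36 were listed in M. pennsylvanicus below its first 100 and 5 were not listed. The same counts, 36 and 5, held for the 100 most abundant IDs of M. pennsylvanicus. When each listed count was taken as a share of its library, the 2 profiles overlapped by 59.6% (the sum over IDs of the smaller share).

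The ID ENSRNOP00000039048 was the second of both voles, with 33990 RPM in M. ochrogaster and 29579 RPM in M. pennsylvanicus. It was the most abundant ID of both Peromyscus libraries, at 24369 RPM in P. californicus and 41837 RPM in P. maniculatus. Among the leading vole IDs it was the one with nearly equal levels. The first ID of M. ochrogaster, ENSRNOP00000044573, had 67297 RPM there. M. pennsylvanicus had 21081 RPM and P. maniculatus 21067 RPM, so M. ochrogaster was the highest of the 3 tables that hold it. It held 7.15% of the listed counts of M. ochrogaster (exact binomial 95% interval 7.15% to 7.15%) and 2.21% of those of M. pennsylvanicus (2.21% to 2.22%), and the table of P. californicus lacks it. These intervals, and those on ratios below, cover counting error only.

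The first ID of M. pennsylvanicus, ENSRNOP00000049172, had 45691 RPM there, 17963 RPM in M. ochrogaster, 13085 RPM in P. maniculatus and 4325 RPM in P. californicus. M. pennsylvanicus was thus the highest of the 4. ENSRNOP00000065445, the third of M. pennsylvanicus, had 29043 RPM there against 3414 RPM in M. ochrogaster, with 8718 and 6184 RPM in P. californicus and P. maniculatus between the voles. ENSRNOP00000022603, the fifth of M. ochrogaster, had 8832 RPM there and 2596 RPM in M. pennsylvanicus. Both Peromyscus values, 8866 RPM in P. californicus and 4065 RPM in P. maniculatus, lay above that of M. pennsylvanicus.

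Among the 5 leading IDs of either vole, the widest gap between listed values was that of ENSRNOP00000046414; ENSRNOP00000024487, also a leading ID of M. ochrogaster, is not listed in M. pennsylvanicus and is described with the IDs of 1 vole. It was the fourth of M. pennsylvanicus, with 23965 RPM, and had 34.0 RPM in M. ochrogaster. P. californicus had 11201 RPM and P. maniculatus 8841 RPM, so M. ochrogaster was the low one of the 4. Its log2 ratio (M. ochrogaster over M. pennsylvanicus) was -9.65, with a counting interval of -9.68 to -9.63. Ratios and departures here and below are on counts scaled by TMM, which matches the libraries on the bulk of their shared IDs, so they can differ a little from the quotient of the RPM values.

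**Figure D1:**
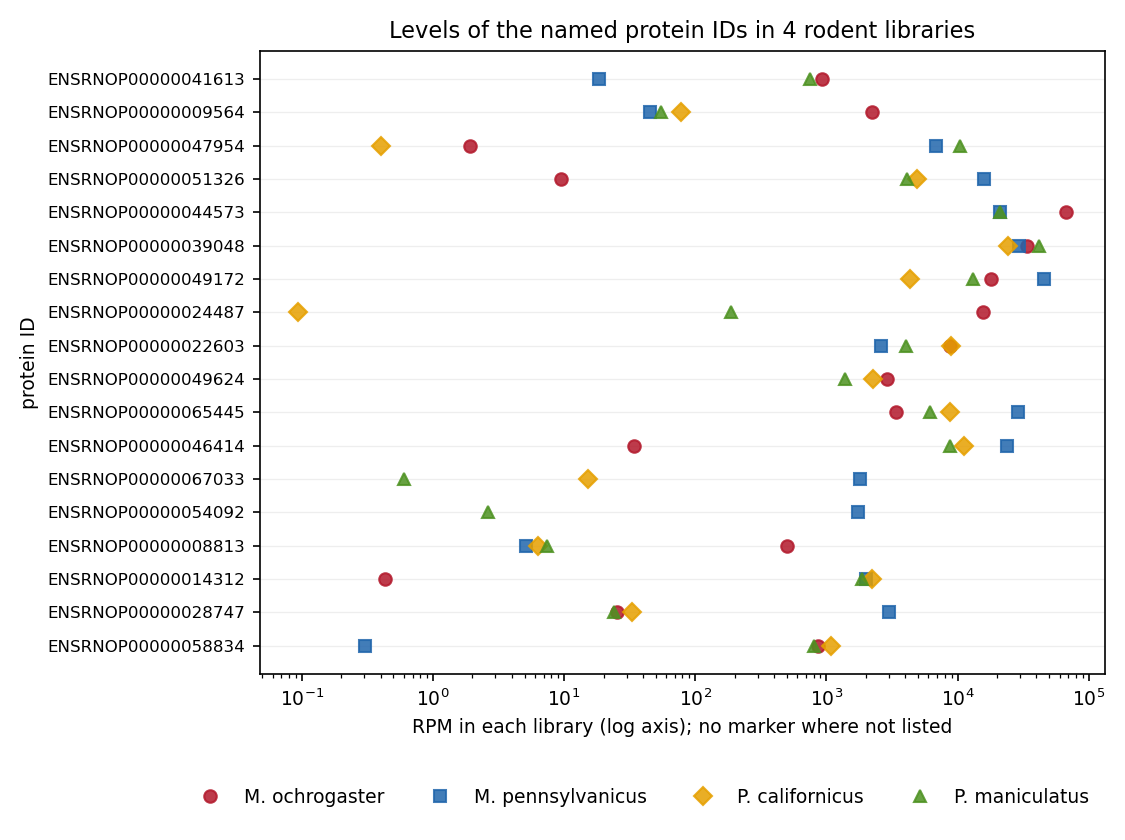
Level of each named protein ID in the 4 rodent libraries, in RPM on a log axis, with 1 marker per library and none where the table lacks the ID. ENSRNOP00000039048 lies between 24369 and 41837 RPM in all 4, while ENSRNOP00000014312 lies between 1868 and 2218 RPM in 3 libraries and at 0.433 RPM in M. ochrogaster.

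How far the voles differed depended on abundance. Shared IDs were placed in 5 classes by the mean of both voles' log2 RPM. Over all 13188 of them the log2 ratio had a median of 0.06 and quartiles of -0.86 and 1.48. The median size of a difference, in either direction, was 2.18-fold. Differences of 2-fold or more were found for 7032 IDs (53.3%), of which 4075 (30.9% of shared IDs) were higher and 2957 (22.4%) lower in M. ochrogaster. Across shared IDs, which are not replicates, the levels of the 2 libraries correlated at r = 0.59 (Spearman's rho 0.60).

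In the 1357 IDs of 100 to 1000 RPM the 2 libraries were closest. There 269 IDs (19.8%) were 2-fold or more apart, and the median size of a difference was 0.46 on the log2 scale. In the 5977 IDs of 10 to 100 RPM it was 0.90, and 46.2% were 2-fold or more apart. In the 5276 IDs of 1 to 10 RPM the median size was 1.82 and the share 69.0%. The 526 IDs under 1 RPM had 66.3% that far apart, with a median size of 1.60. Of the 52 IDs at 1000 RPM or more, 14 (26.9%) differed by 2-fold or more.

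The direction also turned with abundance. Under 1 RPM, 294 IDs were 2-fold or more higher and 55 lower in M. ochrogaster. From 1 to 10 RPM, 2585 were higher and 1054 lower, with a median log2 ratio of 0.94. From 10 to 100 RPM more IDs were lower (1666) than higher (1095), and the median was -0.27. From 100 to 1000 RPM 97 were higher and 172 lower, with a median of -0.18. At 1000 RPM or more 4 were higher and 10 lower. The M. ochrogaster library was thus above its relative at most scarce IDs that differed, and below it at most abundant ones.

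The turn depended on scaling in the abundant classes. With RPM as deposited, the median of all shared IDs moved from 0.06 to 0.26. Of the IDs 2-fold or more apart, the share higher in M. ochrogaster then moved from 36.1% to 52.3% at 100 to 1000 RPM, from 28.6% to 38.5% at 1000 RPM or more and from 39.7% to 46.6% at 10 to 100 RPM. In the classes of 1 to 10 RPM and under 1 RPM it was 71.0% and 84.2% on TMM-scaled counts and 74.2% and 86.5% with RPM as deposited. With the abundance trend of the ratio removed, 49.4% of all IDs 2-fold or more apart were higher in M. ochrogaster, against 57.9% without that step. Removing the trend centres the ratios at each level, so a nearly even split tends to follow from the step itself.

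**Figure D2:**
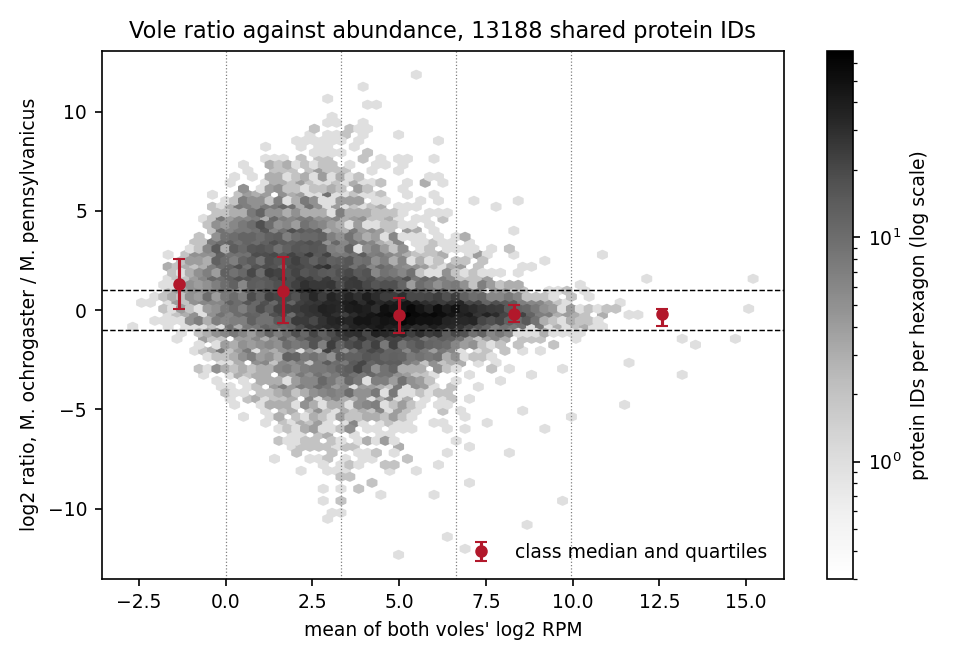
The log2 ratio of M. ochrogaster over M. pennsylvanicus (vertical axis) against the mean of both voles' log2 RPM (horizontal axis) for 13188 shared IDs, with shading for the number of IDs, dashed lines at 2-fold, dotted lines between abundance classes, and points with bars for each class median and quartiles. The class medians lie at 1.32 under 1 RPM and 0.94 from 1 to 10 RPM, and at -0.27, -0.18 and -0.20 in the classes above.

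A class set by the voles' own levels shares its values with the ratio. The 9375 IDs listed in all 4 rodent tables were therefore also classed by the mean log2 RPM of the Peromyscus libraries, which the vole ratio does not use. The turn was there too. Of the IDs 2-fold or more apart, the share higher in M. ochrogaster was 79.3% (191 of 241) under 1 RPM in Peromyscus and 70.1% (1062 of 1516) from 1 to 10 RPM. It was 44.0% (1012 of 2300) from 10 to 100 RPM, 31.7% (164 of 518) from 100 to 1000 RPM and 25% (5 of 20) at 1000 RPM or more. Classes set by 1 vole alone tilt the split by construction, since an ID placed in a high class by 1 library tends to be higher in that library. At 100 to 1000 RPM in M. ochrogaster 81.3% of differing IDs were higher there, and at 100 to 1000 RPM in M. pennsylvanicus 6.60% were.

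The narrowing of differences toward abundant IDs was less complete by the outside classes. With the Peromyscus levels 36.2% of the 1432 IDs of 100 to 1000 RPM were 2-fold or more apart in the voles, against 19.8% with the voles' own mean. The set of IDs moved this share little: among the same 9375 IDs, classed by the voles' own mean, it was 20.1% (251 of 1251). An ID that is high in 1 vole and nearly missing in the other has a low vole mean, and so falls outside the abundant class when the voles themselves set it.

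**Figure D3:**
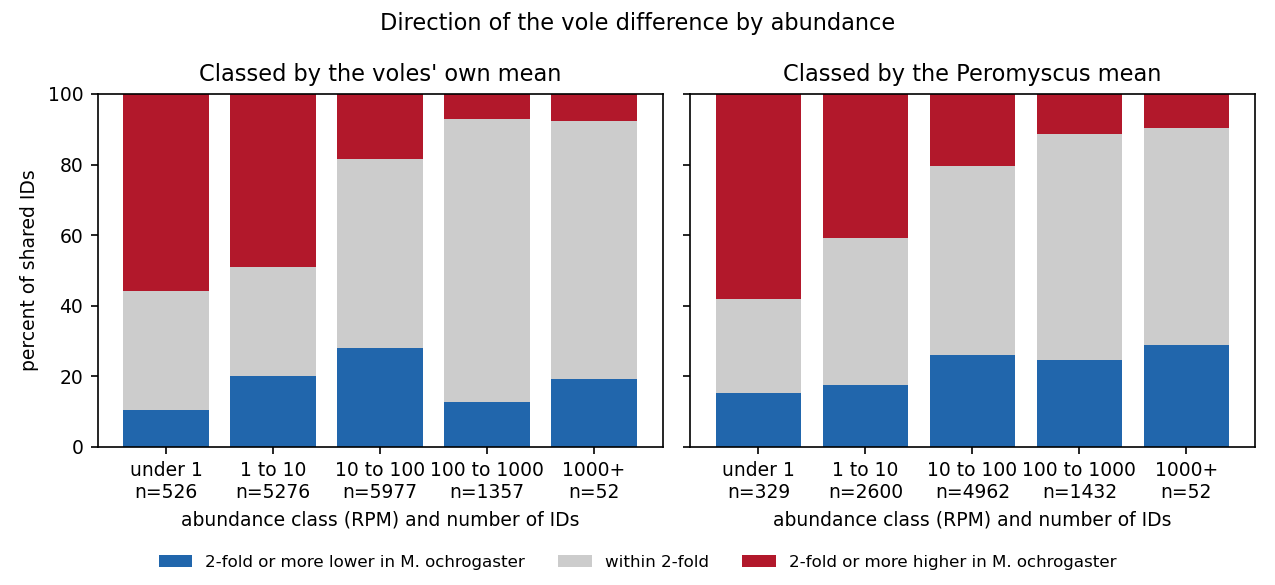
Share of shared IDs (vertical axis, percent) that were 2-fold or more lower in M. ochrogaster, within 2-fold, or 2-fold or more higher, by abundance class (horizontal axis, with the number of IDs). The left panel classes 13188 IDs by the voles' own mean and the right panel 9375 IDs by the Peromyscus mean; in both the upper band, higher in M. ochrogaster, is widest under 1 RPM and narrower from 10 RPM on.

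Very wide differences were rarer, and where they sat depended on how IDs were classed. Ratios of 32-fold or more were found for 666 shared IDs (5.05%), 423 higher and 243 lower in M. ochrogaster. By the voles' own mean, the class of 1 to 10 RPM held 423 of them (313 higher and 110 lower) and the class of 10 to 100 RPM held 223 (103 higher and 120 lower). From 100 to 1000 RPM there were 15 (3 higher and 12 lower). The class at 1000 RPM or more held 1, lower in M. ochrogaster. By the Peromyscus mean, the share of IDs 32-fold or more apart was 4.23% from 1 to 10 RPM and 4.09% from 10 to 100 RPM, but 7.47% (107 IDs) from 100 to 1000 RPM and 13.5% (7 of 52) at 1000 RPM or more. Under 1 RPM it was 6.08% (20 of 329). IDs abundant in the outside libraries, and the scarcest there, were thus more often this far apart than those of middle level. IDs that a table lacks are not in these shares.

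In IDs with a vole mean of 100 RPM or more, the widest ratios downward exceeded those upward. That limit leaves out IDs that are nearly missing in 1 vole. Among the 1484 IDs with a Peromyscus mean of 100 RPM or more, the widest ratios were of like size, -12.33 (ENSRNOP00000014312) and 11.86 (ENSRNOP00000067809). The latter had 2911 RPM in M. ochrogaster, 0.674 RPM in M. pennsylvanicus, 1002 RPM in P. californicus and 2460 RPM in P. maniculatus, so M. pennsylvanicus was the low one of the 4; both were named after their values were seen. The next 4 IDs are the extremes by the vole mean. ENSRNOP00000051326 had 9.41 RPM in M. ochrogaster and 15900 RPM in M. pennsylvanicus, with 4920 RPM in P. californicus and 4089 RPM in P. maniculatus. Its log2 ratio was -10.92 (counting interval -10.97 to -10.86), and M. ochrogaster was the low one of the 4. ENSRNOP00000047954 had 1.90 RPM in M. ochrogaster and 6831 RPM in M. pennsylvanicus (log2 ratio -12.00, interval -12.13 to -11.88). There P. californicus was low as well, at 0.400 RPM, and P. maniculatus high, at 10452 RPM, so the outside level does not place it.

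In the other direction ENSRNOP00000009564 had 2216 RPM in M. ochrogaster and 45.6 RPM in M. pennsylvanicus (log2 ratio 5.41, interval 5.36 to 5.46). P. californicus had 78.1 RPM and P. maniculatus 54.4 RPM, so M. ochrogaster was the high one of the 4. ENSRNOP00000041613 had 931.8 RPM in M. ochrogaster and 18.4 RPM in M. pennsylvanicus (log2 ratio 5.46, interval 5.39 to 5.54). P. maniculatus had 753 RPM, near M. ochrogaster, and the table of P. californicus lacks the ID.

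In terms of reads, shared IDs within 2-fold held 52.8% of the listed counts of M. ochrogaster and 49.3% of those of M. pennsylvanicus. IDs higher in M. ochrogaster held 27.7% of its counts and 5.51% of those of M. pennsylvanicus. IDs lower in M. ochrogaster held 9.54% of its counts and 43.1% of those of M. pennsylvanicus. Though fewer, the shared IDs higher in the meadow vole thus took up more of its reads than those higher in the prairie vole took up of its reads. IDs listed for 1 vole only are outside this comparison. They held 10.01% of the listed counts of M. ochrogaster and 2.02% of those of M. pennsylvanicus. In pooled tissue, fewer cells of a type and less RNA per cell cannot be told apart.

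Which vole stood away from the outside level was asked of the 9375 IDs listed in all 4 tables. In 2642 of them (28.2%) the voles were 4-fold or more apart. A vole was called away where it was 4-fold or more from the other vole while that vole and both Peromyscus libraries lay within 2-fold of each other. For M. ochrogaster 3650 IDs had such a common level in the other 3 libraries, and it was away at 576 of them (15.8%). For M. pennsylvanicus 2970 IDs had one, and it was away at 228 (7.68%). Among IDs listed in all 4 tables the prairie vole library was thus the odd one more often than the meadow vole library, in count and as a share. This count leaves out IDs that 1 vole table lacks. With lacking IDs counted as low, the downward shares were nearly equal, 14.4% for M. ochrogaster and 13.1% for M. pennsylvanicus, as described at the end.

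Departures were mostly downward in both voles. M. ochrogaster was lower at 455 IDs and higher at 121, and M. pennsylvanicus was lower at 186 and higher at 42. At Peromyscus levels of 100 to 1000 RPM M. ochrogaster was lower at 117 of 927 IDs and higher at 1, and M. pennsylvanicus was lower at 40 of 774 and higher at 1. The upward departures of M. ochrogaster lay at low levels: 23 where Peromyscus had under 1 RPM, 56 from 1 to 10 RPM and 41 from 10 to 100 RPM. With the counts of M. ochrogaster thinned at random to the listed total of M. pennsylvanicus, it was away at 457 IDs downward and 121 upward, and M. pennsylvanicus at 179 and 39.

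The remaining 1838 of the 2642 IDs could not be placed. In 1304 the Peromyscus libraries were themselves over 2-fold apart, and in the other 534 neither vole was near enough to them. Over all 9375 IDs the median distance from the Peromyscus mean was 0.99 on the log2 scale for M. ochrogaster and 0.77 for M. pennsylvanicus. M. pennsylvanicus was the nearer vole at 5217 IDs (55.6%), and at 1453 (55.0%) of the 2642. The placed IDs thus leaned further toward M. ochrogaster than the whole set did.

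By Peromyscus class, both voles lay above the outside level at scarce IDs, and M. ochrogaster more so. The Peromyscus mean both sets these classes and is the level subtracted. IDs placed low by it thus tend to lie above it in any other library, and IDs placed high below it. The side on which both voles lie is therefore partly set by construction, while the contrast between the voles does not use that mean. Under 1 RPM the median difference from the Peromyscus mean was 3.41 (log2) in M. ochrogaster and 1.85 in M. pennsylvanicus. From 1 to 10 RPM it was 1.29 for the former and 0.52 for the latter. From 100 to 1000 RPM the medians were -0.35 and -0.05. No table lists an ID at 0, so an ID that is scarce in Peromyscus and listed in the voles has more room above than below.

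Departures with a mean of at least 10 RPM over the 4 libraries were ranked among IDs whose other 3 libraries lay within 2-fold of each other. Without that condition the departure of M. pennsylvanicus at ENSRNOP00000047954 was larger, 8.45 upward. The farthest departures under the condition were these. ENSRNOP00000014312 had 0.433 RPM in M. ochrogaster, against 2002 RPM in M. pennsylvanicus, 2218 RPM in P. californicus and 1868 RPM in P. maniculatus. The departure of M. ochrogaster from the mean of the other 3 libraries was -12.21 on the log2 scale, and those 3 lay close together. Upward, ENSRNOP00000008813 had 504.5 RPM in M. ochrogaster, against 5.12 RPM in M. pennsylvanicus, 6.33 RPM in P. californicus and 7.40 RPM in P. maniculatus, a departure of 6.27.

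For M. pennsylvanicus the farthest downward was ENSRNOP00000058834. It had 0.304 RPM there, against 866 RPM in M. ochrogaster, 1083 RPM in P. californicus and 800.0 RPM in P. maniculatus, a departure of -11.42. Only 23 reads stand behind the M. pennsylvanicus value, and the counting interval of its vole ratio ran from 10.70 to 11.94. Upward, ENSRNOP00000028747 had 2981 RPM in M. pennsylvanicus, against 25.4 RPM in M. ochrogaster, 32.9 RPM in P. californicus and 23.97 RPM in P. maniculatus, a departure of 6.84. By the rule of choice, each of these 4 IDs had 3 libraries of 2 genera at a common level and 1 vole far from it.

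**Figure D4:**
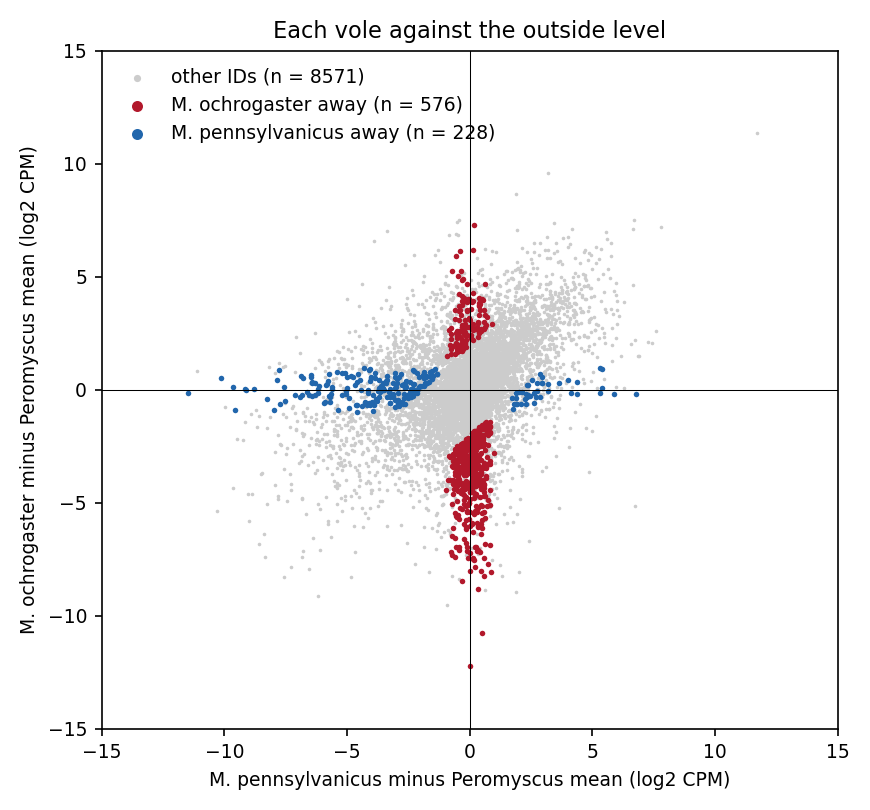
Each of 9375 IDs by its log2 CPM difference from the Peromyscus mean in M. pennsylvanicus (horizontal axis) and in M. ochrogaster (vertical axis), with the 576 IDs where M. ochrogaster was away and the 228 where M. pennsylvanicus was away in colour. The longer arms point downward for M. ochrogaster (455 IDs) and to the left for M. pennsylvanicus (186 IDs), both toward lower levels.

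The IDs that 1 vole table lacks were mostly scarce ones of the prairie vole. The 5359 IDs of M. ochrogaster only were 28.9% of its list and held 10.01% of its listed counts (exact binomial 95% interval 10.01% to 10.02%). Their median level was 3.08 RPM, with quartiles of 1.32 and 8.29 RPM, against 15.5 RPM for shared IDs in the same library. The 653 IDs of M. pennsylvanicus only were 4.72% of its list and held 2.02% of its counts (interval 2.01% to 2.02%). Their median was 2.35 RPM, against 13.5 RPM for shared IDs there.

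By class, the table of M. pennsylvanicus lacked 64.7% of the M. ochrogaster IDs under 1 RPM, 41.3% of those from 1 to 10 RPM, 13.5% from 10 to 100 RPM and 8.59% from 100 to 1000 RPM. The table of M. ochrogaster lacked 10.6%, 6.30%, 2.36% and 1.63% of the M. pennsylvanicus IDs in the same classes. At 1000 RPM or more the shares were close: M. pennsylvanicus lacked 4 of 63 IDs (6.35%) and M. ochrogaster 4 of 73 (5.48%). The gap between the voles was thus widest at scarce IDs, still present from 100 to 1000 RPM, and small among the most abundant IDs. With at least 10 counts after thinning M. ochrogaster, 5368 IDs were in M. ochrogaster only and 651 in M. pennsylvanicus only, against 5359 and 653. That step could change little. The lowest listed M. ochrogaster count was 36, and thinning aimed at 72082947 of 258592065 listed reads, so few IDs could fall under 10 counts. The part of depth in the gap, in total or by class, was not tested, since each table has its own lowest listed level.

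IDs of 1 vole only were also less often found in Peromyscus. Of the 5359, 1375 (25.7%) were in both Peromyscus tables and 2164 (40.4%) in neither. Of the 653, 215 (32.9%) were in both and 248 (38.0%) in neither. Among shared IDs 71.1% were in both and 8.14% in neither. Those that both Peromyscus tables held were the more abundant, with a median of 8.20 RPM in M. ochrogaster and 8.47 RPM in M. pennsylvanicus, against 1.92 and 1.30 RPM for those that neither held.

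**Figure D5:**
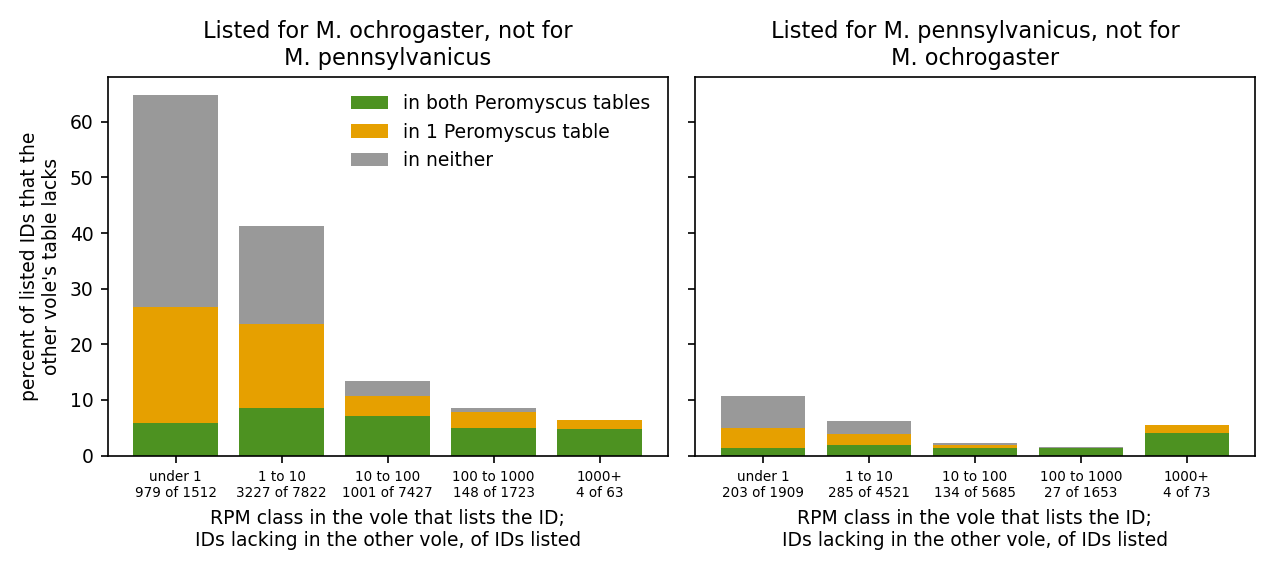
Percent of the IDs listed for 1 vole that the other vole's table lacks (vertical axis), by RPM class in the vole that lists them (horizontal axis, with counts), divided by how many Peromyscus tables hold the ID. The bars fall from 64.7% to 6.35% for M. ochrogaster and stay at or below 10.6% for M. pennsylvanicus.

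Some abundant IDs were lacking all the same. M. ochrogaster had 152 IDs of at least 100 RPM that M. pennsylvanicus lacks, and M. pennsylvanicus had 31 of the reverse kind. The most abundant was ENSRNOP00000024487, the fourth of M. ochrogaster, with 15685 RPM and 1.67% of its counts (interval 1.66% to 1.67%). P. maniculatus had 186 RPM of it and P. californicus 0.0942 RPM, so M. ochrogaster was far above each table that holds it. ENSRNOP00000049624 had 2912 RPM in M. ochrogaster, 2274 RPM in P. californicus and 1385 RPM in P. maniculatus, so M. pennsylvanicus alone lacked it.

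In M. pennsylvanicus the most abundant ID of this kind was ENSRNOP00000067033, with 1808 RPM, 15.2 RPM in P. californicus and 0.598 RPM in P. maniculatus. ENSRNOP00000054092 followed with 1748 RPM, and P. maniculatus, the other table that holds it, had 2.63 RPM. Both were high in the meadow vole library alone.

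Others sat at one level wherever they were listed. ENSRNOP00000015331 had 1195 RPM in M. pennsylvanicus, 1151 RPM in P. californicus and 967 RPM in P. maniculatus, and the M. ochrogaster table lacks it. At 1195 RPM the M. ochrogaster library would hold 328120 reads of it. This ID and the counts that follow were singled out after their values were seen. On TMM-scaled counts, 234 IDs lay within 2-fold of each other in M. ochrogaster and both Peromyscus libraries and were lacking in M. pennsylvanicus, 175 of them at 10 RPM or more in M. ochrogaster. The reverse, lacking in M. ochrogaster, held for 81 IDs, 56 of them at 10 RPM or more in M. pennsylvanicus.

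Counted with the downward departures, these IDs changed the balance between the voles. M. ochrogaster was 4-fold or more lower at 455 and lacked 81, together 536 of 3731 IDs with a common level in the other 3 libraries (14.4%). M. pennsylvanicus was lower at 186 and lacked 234, together 420 of 3204 (13.1%). Over all levels the voles were thus closer in the number of IDs that were low or lacking than in the number that were low and listed. The classes, set by the mean of the 3 libraries with a common level, went opposite ways. Under 1 RPM 1 of 29 IDs was low or lacking in M. ochrogaster and 9 of 10 in M. pennsylvanicus. From 1 to 10 RPM 9.54% of IDs were low or lacking in M. ochrogaster and 20.6% in M. pennsylvanicus. From 10 to 100 RPM the shares were 15.5% and 12.97%, from 100 to 1000 RPM 13.8% and 9.57%, and at 1000 RPM or more 19.4% (7 of 36) and 3.13% (1 of 32). Meadow vole was thus the more often low or lacking at scarce IDs, and prairie vole at levels of 10 RPM and over. The split by class was computed on TMM-scaled counts only and without thinning. Most of the scarce IDs were lacking. From 1 to 10 RPM these were 50 of 74 in M. pennsylvanicus and 23 of 39 in M. ochrogaster, and all of those under 1 RPM were lacking. The form differed too: over all levels most such IDs of M. ochrogaster were listed at a low level (455 of 536), while in M. pennsylvanicus 234 of 420 were lacking. From 100 to 1000 RPM M. pennsylvanicus had 39 lower and 38 lacking. Whether a lacking ID had no reads or was removed before deposit is not stated by the labels or files.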

How the data were processed

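The deposited tables give raw counts, whole-number reads per protein ID without normalization, and RPM, which the authors scaled by 1 constant per library, per the file headers and values. The tools named in the submitters' processing notes are Trimmomatic, BWA and SAMtools, with no version. The reference, the settings and how reads were assigned to IDs, also where they match several, are not stated by the labels or files. The rodent tables use the same ID series, with the prefix ENSRNOP, so the IDs are not particular to either vole. A level is that of reads assigned to an ID, and differences in assignment between the species were not tested.

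Tables were joined on the ID. Log2 CPM used TMM over shared IDs and a prior count of 2 (edgeR 4.0.16, R 4.3.3). Comparisons with Peromyscus used TMM over the IDs in 4 tables. Ratio intervals are exact binomial (Clopper-Pearson, 95%). The ratio calculation was tested on simulated data. Alternatives covered deposited RPM, DESeq2 1.42.0 size factors, a prior count of 0.5, count and fold limits, thinning M. ochrogaster, other class rules and single Peromyscus references.

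Named IDs were the 2 highest and 2 lowest ratios with a mean of at least 100 RPM, the 5 most abundant per vole, the 2 most abundant of each vole only, and the farthest departure each way per vole. Those departures were taken among IDs whose other 3 libraries lay within 2-fold of each other. Gene lists could not be applied. The members and rules were chosen with earlier results of these data known. The other 6 libraries have no ID in common with the voles and were not used.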

Additional observations from a re-analysis of the deposited data

How the results depend on the processing

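With 1 library per species, differences between animals and between libraries cannot be separated, and no paired analysis was possible because each species has a single library and no test was made. The share of shared IDs 2-fold or more apart (53.3%) was 31.6% at a 4-fold limit. With unlisted IDs taken as 0 the base became the 19200 IDs in either vole table, and the share was 67.9%. All 5359 and 653 IDs of 1 vole only count as apart there, so this value follows from the lists. Of the shared IDs that differed, the share higher in M. ochrogaster (57.9%) was 63.4% with RPM as deposited. It was 56.1% with DESeq2 size factors and 62.2% at a 4-fold limit. On the wider base with unlisted IDs taken as 0 it was 72.3%, which likewise follows from the lists. It was 49.4% with the abundance trend removed, a step that centres the ratios at each level. With RPM as deposited the median log2 ratio was 0.26 (quartiles -0.67 and 1.67) against 0.06 (-0.86 and 1.48). In the abundance classes the share higher in M. ochrogaster turned with RPM as deposited at 100 to 1000 RPM (52.3%). With classes set by M. ochrogaster alone it turned in 4 classes, to 10.2% under 1 RPM, 67.7% from 10 to 100, 81.3% from 100 to 1000 and 73.7% at 1000 RPM or more. With only IDs of the 4 tables, an alternative chosen after seeing the data, the share 2-fold or more apart moved to 72% under 1 RPM and 44.8% from 10 to 100 RPM. At 10 RPM or more, 1153 IDs were in M. ochrogaster only and 165 in M. pennsylvanicus only. The nearly equal ENSRNOP00000039048 had a log2 ratio of -0.059 with DESeq2 size factors and -0.030 after thinning, against 0.0055.

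The number of IDs at which a vole was away moved with the limits. For M. ochrogaster higher and lower it was 121 and 455, with 53 and 262 at 8-fold, 337 and 830 at 2-fold, and 22 and 173 in the upper tercile by mean level over the 4 libraries. For M. pennsylvanicus it was 42 and 186, with 15 and 116 at 8-fold, 251 and 347 at 2-fold, and 14 and 49 in that tercile. With P. californicus as the only reference, an alternative chosen after seeing the data like the next, M. ochrogaster was away at 352 IDs upward and 657 downward and M. pennsylvanicus at 108 and 478. With P. maniculatus alone the values were 360 and 599, and 131 and 450. In each of these settings M. ochrogaster was away at more IDs than M. pennsylvanicus in both directions, and both voles at more IDs downward than upward. These are counts on unlike bases. At the 4-fold limit with both references, 3650 IDs could be called for M. ochrogaster and 2970 for M. pennsylvanicus. Shares were not computed for the other settings, so the counts do not compare the voles as shares there. The counts of IDs low or lacking were 502 and 400 with RPM as deposited and 531 and 407 with DESeq2 size factors, against 536 and 420.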

Other observations

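The number inside an ID, which the comparison did not use, went with whether both voles list it. Among IDs numbered up to 30000, 76.3% to 77.3% of those in either vole table were shared, in steps of 10000. Among IDs numbered over 40000 the share was 56.5% to 63.7%, and the M. ochrogaster table alone held 33.2% to 39.5%. The share that M. pennsylvanicus alone held ranged from 2.70% to 4.34% over all 7 steps. IDs with higher numbers were also scarcer. The median level in M. ochrogaster was 12.7 to 13.6 RPM up to 30000 and 5.87 to 8.34 RPM over 40000, and in M. pennsylvanicus 16.6 to 16.9 RPM and 7.61 to 9.74 RPM. Shared IDs were 2-fold or more apart in 50.4% to 50.9% of cases up to 30000, in 58.2% from 30000 to 40000, the highest of the 7 steps, and in 55.3% to 57.7% over 40000. In that step 68.8% of IDs were shared and 27.4% were in M. ochrogaster alone. The part of abundance in these shares was not tested.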
